A study of Mus musculus with 21 samples.

Results

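The 9 genes described here encode enzymes that break down amino acids in the liver: Tat, Hpd, Hgd and Fah of tyrosine degradation, Tdo2 of tryptophan, Sds of serine, Hal of histidine, Gls2 of glutamine and Oat of ornithine. They were chosen by name, through the RefSeq accession that the scanner files give for each probe. All 9 of 9 had a probe, 10 probes in all, and all 9 passed the filter on dim probes, among 17638 features tested (11254 of them named genes). Livers came from 21 female C57BL/6 mice, each on its own array. The groups were 6 TiO2 mice and 5 control mice at day 1, and 6 TiO2 mice and 4 control mice at day 28. TiO2 mice had received 162 µg of nano-sized titanium dioxide once into the trachea, in 40 µl of salt solution with 10% cell-free lung lavage fluid, under anaesthesia. Control mice had received the same fluid without particles. The mice were aged 5 to 7 weeks when bought and kept for 1 to 3 weeks before dosing, and all were anaesthetised again before the organs were taken. The study asked whether particles deposited in the airways alter expression in the liver, and the comparisons below ask this of the amino acid catabolism enzymes.

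The liver removes amino acids that are not needed for protein synthesis. Their nitrogen goes to urea or glutamine and their carbon skeletons to glucose, ketone bodies or the citric acid cycle. Several of these enzymes respond in their transcription to glucocorticoids, glucagon and dietary protein, and Tat and Tdo2 are classical examples. The lobule divides the work: hepatocytes near the portal vein carry Sds, Hal and Gls2, and those around the central vein carry Oat, beside glutamine synthetase. Tat, Tdo2, Hpd, Hgd and Fah were assigned to no zone here.

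RefSeq promoter windows (assembly GRCm38.p6) matched 7 of the 9 genes. The 250 bases before the annotated start are printed for the periportal Hal (chr10:93488518-93488767, plus strand) and the pericentral Oat (chr7:132576399-132576648, minus strand), the pair of opposite zones for which a window was matched. Each is written 5′ to 3′ on the gene's own strand, and capitals mark matches to TATAA or CCAAT on either strand, with overlapping matches joined.
Hal: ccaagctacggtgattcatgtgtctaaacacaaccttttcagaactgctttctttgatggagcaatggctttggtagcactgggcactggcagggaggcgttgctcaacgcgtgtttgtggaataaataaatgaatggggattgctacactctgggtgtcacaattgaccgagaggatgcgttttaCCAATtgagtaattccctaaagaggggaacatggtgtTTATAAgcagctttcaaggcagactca
Oat: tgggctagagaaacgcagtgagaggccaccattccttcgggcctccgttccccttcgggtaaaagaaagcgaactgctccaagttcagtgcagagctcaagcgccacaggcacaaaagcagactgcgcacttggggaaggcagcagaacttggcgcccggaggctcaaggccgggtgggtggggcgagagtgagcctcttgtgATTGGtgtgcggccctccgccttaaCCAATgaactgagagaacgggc

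The Hal window held TATAA on its own strand, ending 22 bases before the start, together with an overlapping match on the other strand, and CCAAT ending 60 bases before it. The Oat window held CCAAT on its own strand ending 18 bases before the start and on the other strand ending 43 bases before it. Neither TATAA nor GGGCGG matched there. Over all 32851 promoter windows of the same length, searched on both strands, TATAA was present in 22.8%, CCAAT in 33.8% and GGGCGG in 32.7%. The matches describe these letters and were tied to no measurement.

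Levels are log2 ratios of the liver RNA (Cy5, red) to a universal mouse reference RNA from cell lines (Cy3, green) that was present on every array, and a difference between groups is a difference of these log2 ratios. In the liver channel the scanner software called all 10 probes of the 9 genes well above background on 21 of 21 arrays, and 0 were saturated. Hepatocyte markers, 8 of 8 on each array, were well above background, with a mean log2 ratio per array of 5.32 to 6.69 at day 1 and 5.68 to 6.66 at day 28 in TiO2 livers, and of 5.58 to 6.73 at day 1 and 5.57 to 6.48 at day 28 in control livers. Every source is labelled liver, but the protocol for RNA extraction speaks of lung. Of 6 lung epithelium markers, 0 to 4 were above background on an array, and their mean log2 ratio was -0.278 to -0.167 over the TiO2 arrays and -0.314 to 0.0461 over the control arrays. Scgb1a1, of airway club cells, was above background on 17 of 21 arrays and Aqp5 on 9, the surfactant genes Sftpc, Sftpb and Sftpa1 on 2, 2 and 4, and Ager, of alveolar type 1 cells, on 0. Neutrophil markers reached 1 to 4 of 6 per array. S100a9 was above background on 21 of 21, with means of 3.59 in TiO2 and 3.12 in control livers at day 1 and 3.45 in TiO2 and 2.89 in control livers at day 28, Csf3r on 12, S100a8 and Mpo on 9 each, and Elane and Ngp on 0. No neutrophil marker passed in limma (0 of 4 tested on each day), and the part of other cells in the results was not tested. Arrays were scanned on 3 days, and the number of liver probes well above background ranged over 15210 to 16896 on the first (6 arrays), 20876 to 26613 on the second (8 arrays) and 12975 to 16746 on the third (7 arrays). TiO2 groups were spread evenly, with 2 livers per scan day, whereas 1 liver of each control group was scanned on scan day 1, and 1 day 28 control on scan day 3. Animal numbers in the labels of TiO2 and control mice lie in separate ranges, and the labels do not say whether they were housed or dosed apart. In whole liver RNA, fewer hepatocytes and less RNA per hepatocyte cannot be told apart.

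None of the 9 enzymes changed with TiO2 at either day after adjustment over all features. In limma, 0 of 9 passed an adjusted p of 0.05 at day 1 or at day 28. Among all features the share was 0% on both days, so the count of 0 is also the background. At an unadjusted p under 0.05, 0 of 9 members passed at day 1, where 306 features did (1.73%), and 1 of 9 passed at day 28, where 164 did (0.93%). That member was Gls2. With scan day as a block, 0 of 9 passed after adjustment on either day, beside 0% of all features, and at the unadjusted threshold 0 of 9 passed at day 1 (4.09% of features) and 1 of 9, again Gls2, at day 28 (3.06%). For every member the TiO2 and control livers overlapped on both days. Groups that did not overlap were seen for 0.108% of all features at day 1 and 0.281% at day 28. The arrays within each group varied by SDs of 0.0758 (Fah, control day 1) to 0.887 (Sds, control day 1), and 95% intervals of the differences were correspondingly wide for Sds and narrow for Fah.

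**Figure D1:**
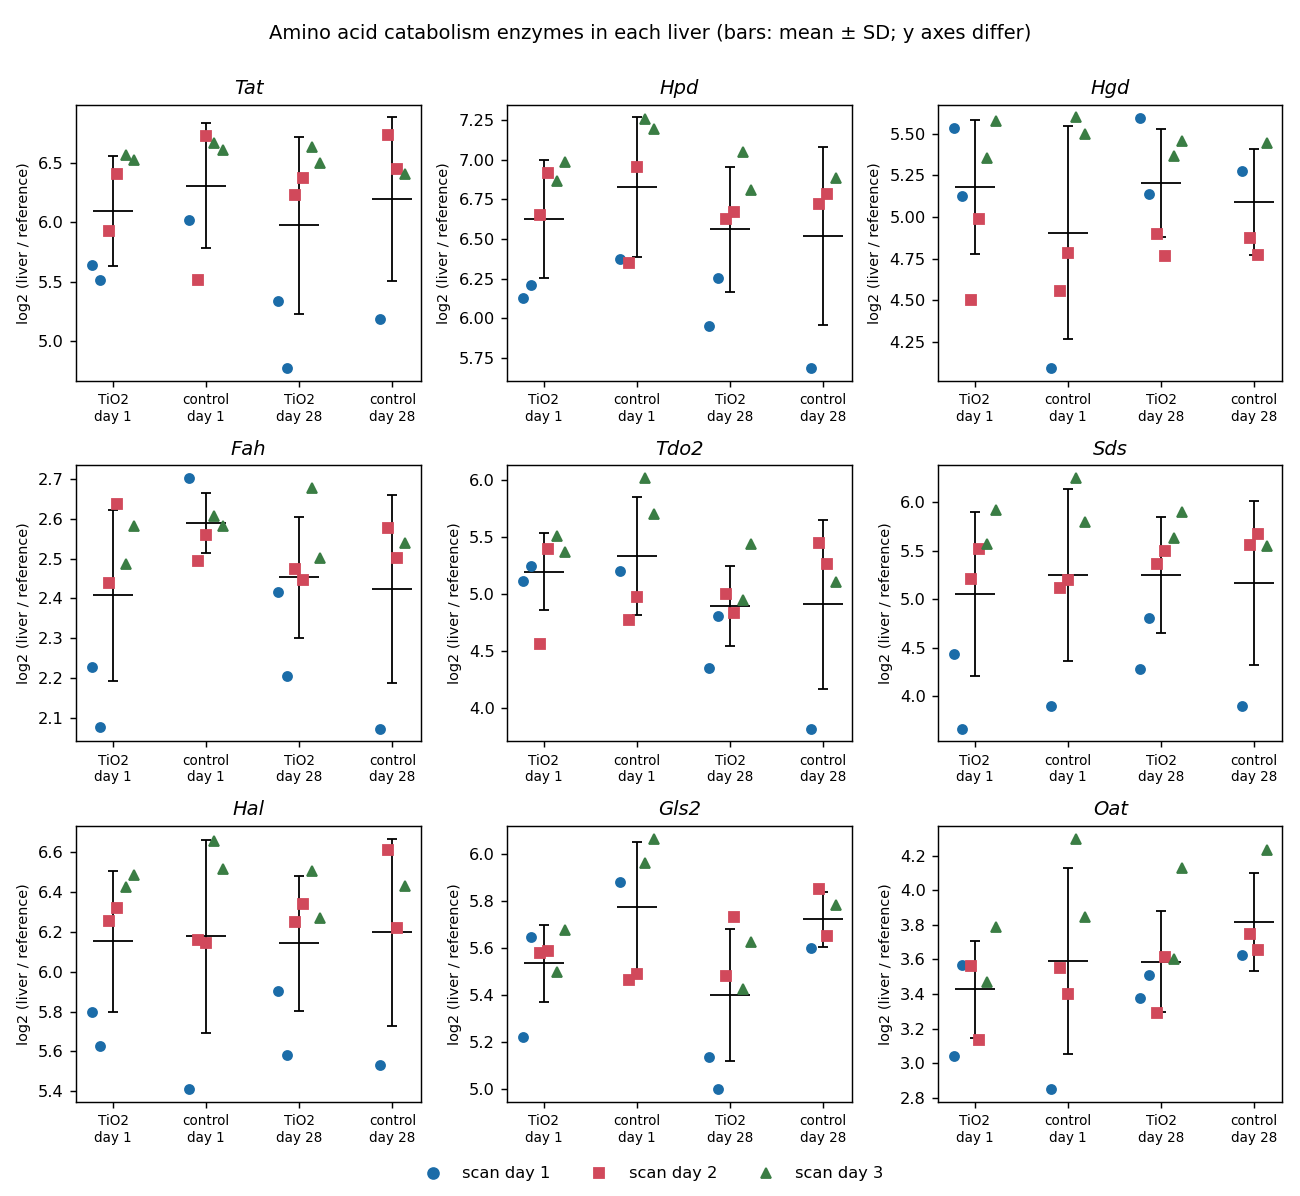
Each panel shows 1 enzyme, with the log2 ratio of liver to reference RNA on the vertical axis and 1 point per liver in 4 groups (6 TiO2 and 5 control livers at day 1, 6 TiO2 and 4 control livers at day 28). Bars give the mean ± SD and symbols give the scan day. TiO2 and control livers overlap in all 9 panels, and in Sds and Hal the livers of scan day 1 lie at the bottom of every group.

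Tyrosine degradation begins with Tat, tyrosine aminotransferase (chromosome 8, GRCm38.p6 109986078 to 109999804), which passes the amino group of tyrosine to 2-oxoglutarate. Its log2 ratio was 5.51 to 6.56 in TiO2 livers at day 1, against 6.02, 5.51, 6.73, 6.67 and 6.61 in control livers. At day 28 it was 4.77 to 6.63 in TiO2 livers, against 5.18, 6.73, 6.45 and 6.40 in control livers. The TiO2 livers thus lay within or below the span of the controls, and the lowest values on both days came mostly from scan day 1. The TiO2 minus control difference was -0.21 ± 0.339 (SE) at day 1 and -0.22 ± 0.361 at day 28, neither past the threshold in limma. With scan day as a block these were -0.0788 ± 0.195 and -0.17 ± 0.208.

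Hpd, 4-hydroxyphenylpyruvate dioxygenase (chromosome 5, 123171807 to 123182723), converts the product of Tat to homogentisate. It had the highest ratio over the reference of the 9 probes, 6.63 ± 0.371 and 6.83 ± 0.439 (SD, n = 6 and 5) in TiO2 and control livers at day 1, and 6.56 ± 0.396 and 6.52 ± 0.56 (n = 6 and 4) in TiO2 and control livers at day 28. A ratio depends on the probe and on the level in the reference, so it does not rank the transcripts of the liver. The difference was -0.20 ± 0.243 (SE) at day 1 and 0.0402 ± 0.259 at day 28. Control day 28 replicate 1 lay far below the other livers of its group, at 5.69 against 6.72, 6.79 and 6.89.

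Hgd, homogentisate 1,2-dioxygenase (chromosome 16, 37579742 to 37632026), opens the aromatic ring. At day 1 it read 5.54, 5.12, 4.50, 4.99, 5.35 and 5.57 in TiO2 livers, against 4.09, 4.56, 4.78, 5.60 and 5.50 in control livers. This was the only member whose mean was higher in TiO2 livers at day 1, by 0.27 ± 0.246 (95% interval -0.238 to 0.785). Without control day 1 replicate 1 the difference was 0.0701. On scan days 1, 2 and 3 it was 1.24, 0.0739 and -0.0847, the first resting on that 1 control liver. At day 28 the difference was 0.114 ± 0.262. The reference channel of Hgd was well above background on 18 of 21 arrays, so its ratio rests on a dim denominator.

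Fah, fumarylacetoacetate hydrolase (chromosome 7, 84585159 to 84605942), completes the pathway and yields fumarate and acetoacetate. It varied least of the 9, over a range of 0.63 across 21 livers. At day 1 it was 2.23, 2.08, 2.44, 2.64, 2.49 and 2.58 in TiO2 livers, against 2.70, 2.49, 2.56, 2.61 and 2.58 in control livers. Of the 6 TiO2 livers, 4 lay below the lowest control. The difference of -0.18 ± 0.113 did not pass in limma (unadjusted p = 0.124, adjusted p = 1.00) or in the two-sided exact permutation test (p = 0.117). At day 28 it was 0.03 ± 0.121, with an interval of -0.221 to 0.281.

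Tryptophan degradation is opened by Tdo2, tryptophan 2,3-dioxygenase (chromosome 3, 81958412 to 81975728), which commits tryptophan to the kynurenine pathway. The probe with the higher liver signal averaged 5.19 ± 0.34 in TiO2 livers and 5.33 ± 0.519 in control livers at day 1 (SD, n = 6 and 5), and 4.89 ± 0.35 in TiO2 livers and 4.91 ± 0.741 in control livers at day 28 (n = 6 and 4). Differences were -0.14 ± 0.268 (SE) and -0.0137 ± 0.286. A second probe disagreed in sign at day 1, with 4.91 ± 0.168 in TiO2 livers and 4.65 ± 0.725 in control livers. The disagreement centred on control day 1 replicate 1, which read 5.20 with the first probe and 3.61 with the second. The reference channel of the first probe was well above background on 19 of 21 arrays.

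Sds, serine dehydratase (chromosome 5, 120476547 to 120483932), makes pyruvate from serine and feeds gluconeogenesis in the periportal zone. It varied most of the 9, over a range of 2.59. Values at day 1 were 4.44, 3.66, 5.21, 5.52, 5.57 and 5.92 in TiO2 livers, against 3.90, 5.11, 5.20, 6.25 and 5.80 in control livers. At day 28 they were 4.28, 4.80, 5.37, 5.50, 5.64 and 5.90 in TiO2 livers, against 3.89, 5.56, 5.67 and 5.54 in control livers. In every group the lowest values, all below 5, were the livers of scan day 1. The difference was -0.20 ± 0.436 at day 1 and 0.0824 ± 0.464 at day 28, and with scan day as a block it was -0.0054 ± 0.167 and 0.151 ± 0.178. The 95% interval at day 1 was -1.10 to 0.708 without the block and -0.352 to 0.341 with it.

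Hal, histidine ammonia-lyase (chromosome 10, 93488768 to 93516761), takes the first step of histidine breakdown. Taken as a set of 4, its group means lay closest together among the members: 6.15 ± 0.354 in TiO2 livers and 6.18 ± 0.483 in control livers at day 1 (SD, n = 6 and 5), and 6.14 ± 0.337 in TiO2 livers and 6.20 ± 0.47 in control livers at day 28 (n = 6 and 4). At day 28 the TiO2 and control means of Tdo2, Fah and Hpd were closer than those of Hal. The differences were -0.0248 ± 0.228 (SE) and -0.0553 ± 0.243. The blocked 95% interval ran from -0.134 to 0.282 at day 1 and from -0.238 to 0.205 at day 28. Without the block the intervals were wider, -0.499 to 0.450 at day 1 and -0.561 to 0.451 at day 28. These bounds are not a limit of detection, and none was computed.

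Gls2, the liver-type glutaminase (chromosome 10, 128194635 to 128210004), releases ammonia from glutamine in periportal mitochondria, close to the urea cycle. It had the smallest p of the members on both days and was lower in TiO2 livers. At day 1 the log2 ratio was 5.22, 5.65, 5.58, 5.59, 5.50 and 5.67 in TiO2 livers, against 5.88, 5.47, 5.49, 5.96 and 6.06 in control livers. All 6 TiO2 livers lay below the control mean, and 1 of 6 lay below the lowest control. The difference was -0.24 ± 0.137 (SE; 0.848-fold), with an unadjusted limma p of 0.0972 and a two-sided exact permutation p of 0.115.

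At day 28 Gls2 was 5.14, 5.00, 5.48, 5.73, 5.43 and 5.62 in TiO2 livers, against 5.60, 5.85, 5.65 and 5.78 in control livers. Here 4 of 6 TiO2 livers lay below the lowest control, and 1 of 6 lay above the control mean. The difference of -0.32 ± 0.146 (SE) corresponds to 0.80-fold, with a 95% interval of 0.648 to 0.987. Its unadjusted limma p was 0.0386 and its adjusted p was 1, so it did not pass over all features. The exact permutation p was 0.0619. The scan-day block left it at -0.32 ± 0.128 (unadjusted p = 0.0206, adjusted p = 1 in limma). Within the scan days TiO2 minus control was -0.531, -0.147 and -0.258 at day 28, and -0.445, 0.105 and -0.427 at day 1.

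Averaged over both days, Gls2 was -0.28 ± 0.10 (SE) in TiO2 against control livers (95% interval -0.488 to -0.0718), with an unadjusted p of 0.0108 and an adjusted p of 1.00 in limma. For this mean effect 301 features, 1.71%, had an unadjusted p under 0.05 and 0 of 17638 (0%) passed after adjustment. Blocked by scan day it was -0.265 ± 0.0882 (unadjusted p = 0.00666, adjusted p = 1.00 in limma), beside 4.26% of features under the unadjusted threshold and 0% after adjustment. The TiO2 effect on Gls2 at day 28 minus that at day 1 was -0.0844 ± 0.20, with an interval of -0.50 to 0.332. When the liver channel was used without the reference, the day 28 difference of Gls2 was -0.0709, far smaller than the ratio gave. The day 1 difference of Gls2 did not shrink in this way. It stayed between -0.296 and -0.191 over 14 processing alternatives, the liver channel among them. The mean over both days stayed between -0.299 and -0.159 over 13 alternatives. The day 28 effect minus the day 1 effect ran from -0.165 to 0.176 over 13 alternatives.

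Oat, ornithine aminotransferase (chromosome 7, 132557475 to 132576398), is the pericentral member and passes the amino group of ornithine on toward glutamate. At day 1 it was 3.04, 3.57, 3.56, 3.14, 3.47 and 3.79 in TiO2 livers, against 2.85, 3.55, 3.40, 4.30 and 3.85 in control livers, a difference of -0.16 ± 0.206. At day 28 it was 3.37, 3.51, 3.29, 3.62, 3.60 and 4.13 in TiO2 livers, against 3.62, 3.75, 3.65 and 4.23 in control livers. There 5 of 6 TiO2 livers lay below the lowest control. The difference of -0.23 ± 0.219 was within the replicate error (unadjusted limma p = 0.31, adjusted p = 1, exact permutation p = 0.257), and with scan day as a block it was -0.254 ± 0.153.

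**Figure D2:**
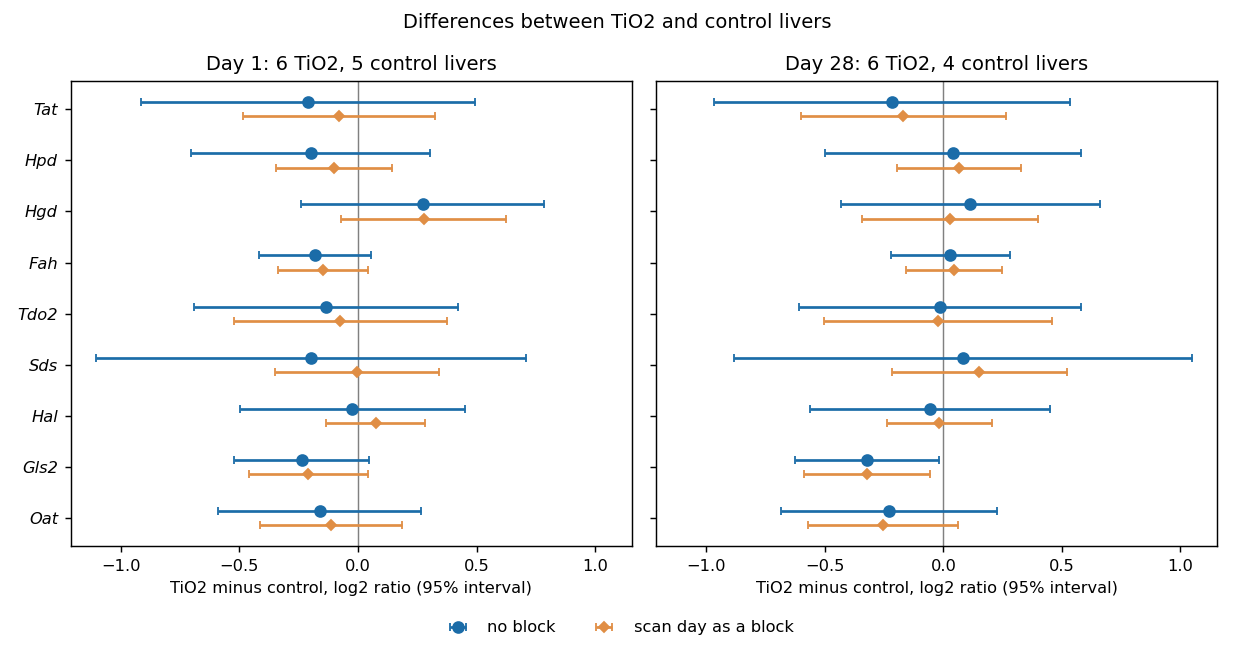
TiO2 minus control for each enzyme at day 1 (left) and day 28 (right), as log2 ratio with 95% intervals from limma, without a block (circles) and with scan day as a block (diamonds). The intervals of Gls2 at day 28, -0.625 to -0.0186 without the block and -0.588 to -0.0542 with it, do not reach 0, and every other interval drawn includes 0. The block narrows the intervals of Sds and Hal strongly.

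Counted by direction, 8 of 9 members were below 0 at day 1 and 1 was above it, with a median difference of -0.181. Among all features 52.2% were below 0, with a median of -0.00625. At day 28, 5 of 9 members were below 0 with a median of -0.0137, beside 48.8% and a median of 0.00358 among all features. With scan day as a block 7 of 9 were below 0 at day 1, beside 54.3% of all features, and 5 of 9 at day 28, beside 51.4%. The control groups had a smaller share of their livers on scan day 1 than the TiO2 groups. On that scan day 8 of 9 members had their lowest mean ratio (Hgd had its lowest on scan day 2). The part of scan day in these directions was not tested beyond the blocked values given.

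Zones were compared side by side. The mean of the periportal Sds, Hal and Gls2 was 5.58 in TiO2 livers and 5.73 in control livers at day 1, while the pericentral Oat was 3.43 and 3.59. At day 28 the periportal mean was 5.60 in TiO2 livers and 5.69 in control livers, while Oat was 3.59 and 3.81. Subtracting Oat from the periportal mean in each liver gave 2.15 ± 0.418 in TiO2 livers and 2.15 ± 0.127 in control livers at day 1 (SD, n = 6 and 5), and 2.01 ± 0.33 in TiO2 livers and 1.88 ± 0.419 in control livers at day 28 (n = 6 and 4). The ranges were 1.41 to 2.67 against 1.99 to 2.28 at day 1, and 1.62 to 2.41 against 1.38 to 2.26 at day 28, TiO2 livers first in each pair. The 1.38 was control day 28 replicate 1, the only day 28 control on scan day 1. The other day 28 controls stood at 2.26, 2.20 and 1.68. No scan-day block was applied to this difference. The balance between zones overlapped between TiO2 and control livers on both days, and its SD was largest in control livers at day 28 and TiO2 livers at day 1. It is a description, and Gls2 in one zone and Oat in the other were both below their controls on both days without passing the test. The other periportal members did not share this pattern fully. Sds was below its controls at day 1 (-0.20) and above them at day 28 (0.0824). Hal was slightly below on both days (-0.0248 and -0.0553), but above at day 1 with the scan-day block (0.0742).

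**Figure D3:**
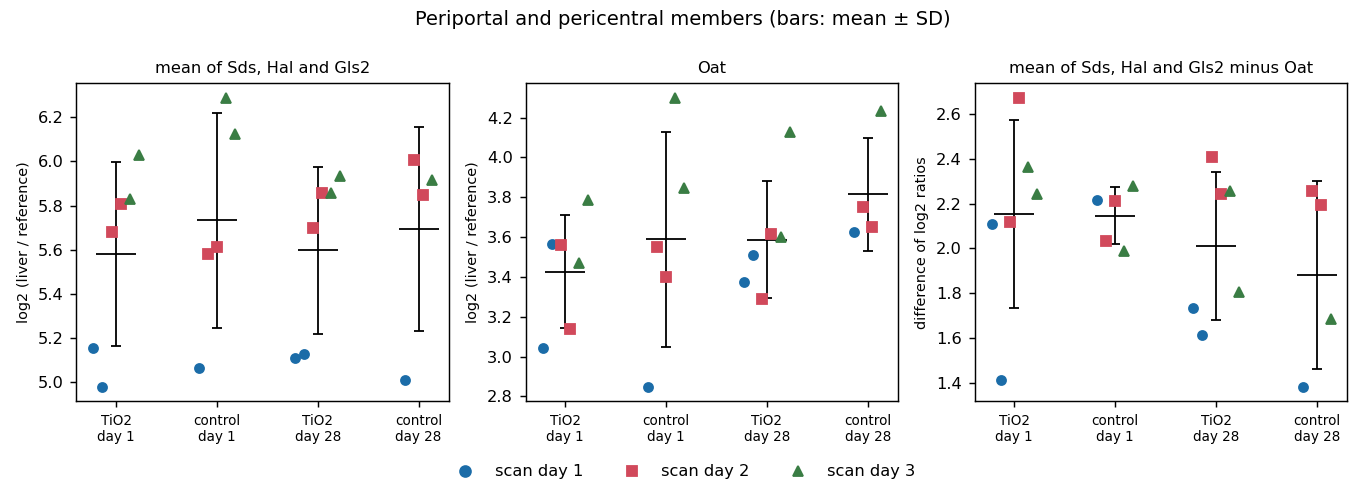
Log2 ratio of liver to reference RNA for the mean of the periportal Sds, Hal and Gls2 (left) and the pericentral Oat (middle), and the difference between them (right), with 1 point per liver, mean ± SD as bars and symbols for scan day. The difference averages 2.15 in TiO2 and 2.15 in control livers at day 1, and 2.01 in TiO2 and 1.88 in control livers at day 28.

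Time since instillation was compared within each treatment. The age of the mice at sampling cannot be told apart from it in these comparisons. In limma 0 of 9 members passed for control day 28 minus control day 1, where 0 of 17638 features did (0%) and 531 had an unadjusted p under 0.05 (3.01%). For TiO2 day 28 minus TiO2 day 1, 0 of 9 passed, where 6 features did (0.034%) and 664 had an unadjusted p under 0.05 (3.76%). At that unadjusted threshold the members numbered 0 in both. Tdo2, by its first probe, had the most negative difference in both comparisons, -0.30 ± 0.255 (SE) in TiO2 livers and -0.42 ± 0.297 in control livers. The control value was -0.0587 without control day 28 replicate 1 and 0.888 with the scanner's LogRatio. The second probe of Tdo2 averaged 4.91 at day 1 and 4.75 at day 28 in TiO2 livers. In control livers it averaged 4.65 and 4.80, the opposite direction to the first probe. Oat was higher at day 28 by 0.16 ± 0.196 in TiO2 livers and by 0.227 ± 0.228 in control livers, all within the replicate error. For the TiO2 effect at day 28 minus that at day 1, 0 of 9 members and 0 of 17638 features (0%) passed, and 133 features had an unadjusted p under 0.05 (0.754%), none of them a member.

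Scan day accounted for more of the spread of most members than the 4 groups did. It held 85.9% of the variance of Hal over the 21 livers, 85.7% of that of Sds, 78.8% of Hpd, 68.4% of Tat, 51.7% of Hgd, 46.1% of Oat, 45.7% of Fah, 33.9% of Tdo2 and 22.3% of Gls2. The groups held 0.322% of the variance of Hal and 1.39% of that of Sds, and at most 35.0%, in Gls2, the only member for which the groups held more than the scan day in this fit. The scan-day share of Gls2 was 72.8% with the scanner's own LogRatio and 48.4% with scaling between arrays. Over all features without a missing value the median share of scan day was 35.7%, and 32.7% of features exceeded 50%, as 5 of 9 members did. Sds averaged 4.16, 5.39 and 5.80 on scan days 1, 2 and 3, Hal 5.64, 6.29 and 6.47, and Gls2 5.41, 5.60 and 5.72 (n = 6, 8 and 7). Sds therefore differed between scan days by far more than between any pair of groups.

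The same share was smaller for 7 of the 9 when the liver channel was taken alone, quantile normalized: 1.7% for Hal, 8.29% for Tat, 19.4% for Hpd, 6.90% for Tdo2, 7.03% for Gls2, 20.4% for Oat and 58.8% for Sds. It was larger for Hgd (68.0%) and Fah (69.8%). The net reference signal of Sds had a median of 122 on scan day 1, 38.8 on scan day 2 and 45.5 on scan day 3, and its net liver signal had medians of 683, 3701 and 1419. Scan day 1 thus had both the brightest reference and the dimmest liver signal for Sds. Labelling, hybridisation and scanning of that day cannot be told apart in these files.

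**Figure D4:**
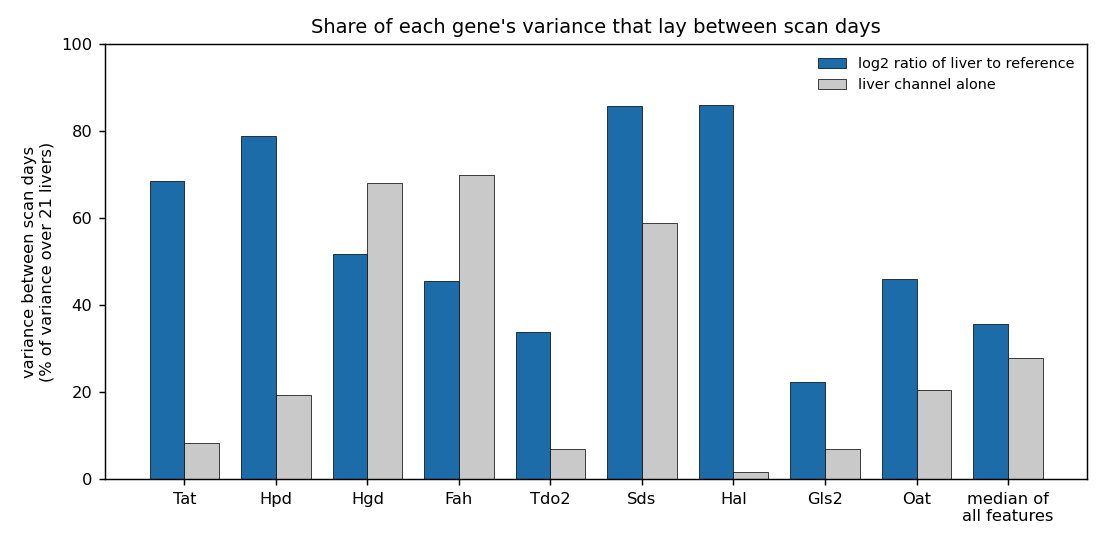
Percent of each enzyme's variance over 21 livers that lay between the 3 scan days, for the log2 ratio (blue) and for the liver channel alone (grey), with the median of all features at the right. Hal stands at 85.9% as a ratio and 1.7% in the liver channel alone, while Hgd and Fah are higher in the liver channel alone.

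With each scan day's mean subtracted, the members were compared with one another across livers. Of 36 pairs 24 had a positive Pearson r and 12 a negative one, with a median of 0.192 and a range of -0.506 to 0.71 (n = 21 livers; permutation within scan days, Benjamini-Hochberg over 36 pairs). Tdo2, by its first probe, and Hpd had r = 0.71 (p = 0.00115, adjusted 0.0414) and Spearman's rho = 0.66 (adjusted 0.0398), the only pair past 0.05 by both measures. Within scan days their r was 0.917, 0.514 and 0.564, and without the 2 livers farthest from the median of Tdo2 it was 0.551. Tat passed by rank only, with Hpd (rho = 0.678, adjusted p = 0.0272 by permutation; r = 0.575, adjusted p = 0.195) and with Tdo2 (rho = 0.668, adjusted p = 0.0272; r = 0.512, adjusted p = 0.195). Within scan days r was 0.37, 0.83 and 0.768 for Tat with Hpd, and 0.51, 0.663 and 0.502 for Tat with Tdo2. Without the 2 livers farthest from the median of Tat, r was 0.68 with Hpd and 0.649 with Tdo2. Among Tat, Hpd and Tdo2 every pair thus passed by rank, and only Tdo2 with Hpd passed by Pearson r. Hgd and Fah, also of tyrosine degradation, passed with none of them by either measure. Hgd had r = -0.14 with Tat, -0.195 with Hpd, -0.0947 with Tdo2 and -0.472 with Fah. Fah had r = 0.499 with Tat, 0.487 with Hpd and 0.292 with Tdo2. TiO2 and control livers were pooled for this. No correlation was computed for the second probe of Tdo2. The first and second probes read 5.20 and 3.61 in control day 1 replicate 1, and 3.81 and 4.69 in control day 28 replicate 1. The part of the shared reference RNA in these correlations was not tested. The pair Fah and Oat had the lowest r, -0.506.

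Among 11094 other named genes with values on all arrays, the scan-day-centred pattern most like that of each member was looked up as a description over 21 livers. Tat was most like Prodh2 (r = 0.941), which degrades hydroxyproline, and Apom (r = 0.861), an apolipoprotein. Hgd was most like Pigr (r = 0.936), the receptor that carries polymeric immunoglobulin, and Pdzk1 (r = 0.921), a scaffold protein. Fah was most like Pcbd1 (r = 0.865), which recycles the cofactor of phenylalanine hydroxylase, and Cyp2e1 (r = 0.846), a pericentral cytochrome. Sds was most like Slc26a1 (r = 0.899), an anion exchanger, and Asl (r = 0.868), a urea cycle enzyme of the periportal zone. Gls2 was most like Sirt7 (r = 0.854), a nuclear sirtuin, and Msl1 (r = 0.849). The highest r was 0.838 for Tdo2 (Slc17a3), 0.772 for Hal (Prxl2a) and 0.749 for Oat (Ewsr1). All arrays share the reference RNA, and the highest of so many correlations is high by selection. No rank correlation and no leave-one-out value was computed for them. Single livers can weigh on such an r: Hgd read 4.09 in control day 1 replicate 1, beside a scan day 1 mean of 5.13. Tdo2 entered by its first probe.

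The other enzymes of amino acid catabolism, a list of 67 genes with 62 on the array and 61 tested, had 0 past the adjusted threshold on either day. At day 1, 50 of 61 were below 0 and 11 above, with a median of -0.128, beside 52.2% of all features below 0. At day 28, 45 of 61 were below 0 and 16 above, with a median of -0.0796, beside 48.8%. Under the scan-day block the numbers below 0 were 47 at day 1 (median -0.104) and 39 at day 28 (median -0.0625). Of 8 hepatocyte markers 6 were below 0 at day 1 (median -0.132) and 3 at day 28, and with the block 5 (median -0.0108) and 4. Of 6 sinusoidal endothelial markers 6 were below 0 at day 1 (4 with the block) and 0 at day 28. The other marker lists, at day 1 and day 28, had these numbers below 0, with the block in brackets. Kupffer cell and macrophage markers had 2 and 0 of 6 (2 and 1), and stellate cell markers 5 and 3 of 7 (7 and 3). Cholangiocyte markers had 2 and 2 of 5 (3 and 4), and neutrophil markers 2 and 1 of 4 (2 and 0). Erythroid markers had 3 and 2 of 3 (3 and 1), and lung epithelium markers 2 and 1 of 3 (2 and 2). The part of these shifts in the list's directions was not tested. Below 0 on both days were 36 of 61 (29 with the block), which is 59.0% (47.5%), beside 26.9% (28.7%) of all features. The members had 5 of 9 below 0 on both days (4 with the block). Genes measured in the same livers are not independent of one another, so these counts are a description.

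At day 1 the most negative of these genes were Mccc1, of leucine degradation (-0.531 ± 0.45, SE), and Bhmt2, a methyltransferase that makes methionine (-0.489 ± 0.619). The most positive were Aldh7a1, of lysine degradation (0.287 ± 0.148), and Cbs, which joins homocysteine to serine (0.0858 ± 0.175). At day 28 the most negative were Prodh, the proline dehydrogenase whose product is shared with the Oat reaction (-0.403 ± 0.148), and Gpt2, an alanine aminotransferase (-0.364 ± 0.186). The most positive were Pccb, of propionate metabolism (0.406 ± 0.272), and Csad, of taurine synthesis (0.351 ± 0.381). At an unadjusted p under 0.05, 2 of 61 were lower and 0 higher on each day, beside 0.754% of all features lower at day 1 and 0.556% at day 28. The scan-day block gave 4 lower and 2 higher at day 1, beside 1.9% lower and 2.18% higher among all features, and 7 lower and 0 higher at day 28, beside 1.6% and 1.45%. For the mean over both days 6 were lower and 0 higher without the block, beside 0.947% and 0.76%, and 11 were lower and 0 higher with it, beside 2.68% and 1.58%.

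Genes that share a zone with the members gave no call either. Of 9 other periportal genes 7 were below 0 at day 1 (median -0.202), led by the urea cycle gene Asl (-0.372 ± 0.521) and Etnppl (-0.307 ± 0.508), while Pigr stood at 0.326 ± 0.286 and the cadherin gene Cdh1 at 0.0623 ± 0.217. At day 28, 4 of 9 were below 0 (median 0.0756), with the urea cycle gene Ass1 at -0.269 ± 0.319 and Arg1 at -0.153 ± 0.335, and Cdh1 at 0.228 ± 0.231 and Aldh1b1 at 0.168 ± 0.383. Of 13 other pericentral genes 12 were below 0 at day 1 (median -0.156), led by the transcription factor gene Tbx3 (-0.529 ± 0.271) and the ammonium transporter gene Rhbg (-0.35 ± 0.283). Gulo, of vitamin C synthesis, was highest there at 0.00341 ± 0.288, and Rgn followed at -0.0397 ± 0.301. At day 28, 7 of 13 were below 0 (median -0.0153), with Cyp2a5 at -0.338 ± 0.283 and the Wnt-related receptor gene Lgr5 at -0.322 ± 0.287 lowest, and Rgn at 0.0421 ± 0.321 among the highest. The number called was 0 in both lists on both days. Under the scan-day block 6 of 9 periportal genes were below 0 at day 1 (median -0.106) and 3 at day 28, and 10 of 13 pericentral genes on each day. Among all features 54.3% were below 0 at day 1 with the block and 52.2% without it, and 51.4% and 48.8% at day 28.

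Genes that respond to fasting and stress hormones were listed because Tat and Tdo2 respond to the same hormones. At day 1, 14 of 17 were above 0 and 3 below, with a median of 0.193, beside 47.8% of all features above 0, and 0 passed after adjustment. At an unadjusted p under 0.05, 3 of 17 were higher (0.981% of all features), and 6 of 17 with the scan-day block (2.18%), which had 12 above 0 and 5 below. The most positive were Errfi1, which restrains EGF receptor signalling (0.987 ± 0.388), and Cebpb, a transcription factor gene (0.717 ± 0.288), both with an adjusted p of 1.00 in limma over all features. The most negative were Creb3l3 (-0.14 ± 0.351) and Gcgr, the glucagon receptor gene (-0.116 ± 0.216). At day 28, 9 of 17 were above 0 (median 0.0452), beside 51.2% of all features, between Ppargc1a at -0.325 ± 0.282 and Gcgr at -0.234 ± 0.23 below and Creb3l3 at 0.245 ± 0.374 and Cebpb at 0.156 ± 0.307 above. Of 8 tested clock genes 5 were above 0 at day 1 and 6 at day 28, and 0 were called. The most positive at day 1 were Arntl, of the core activator (0.20 ± 0.222), and its partner Clock (0.168 ± 0.12), and the most negative were the output gene Dbp (-0.707 ± 0.54) and the repressor gene Nr1d1 (-0.301 ± 0.316). At day 28 the most positive were Arntl (0.195 ± 0.237) and Nr1d1 (0.12 ± 0.337), and the most negative were Dbp (-0.492 ± 0.575) and Tef, of the same family (-0.449 ± 0.299).

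**Figure D5:**
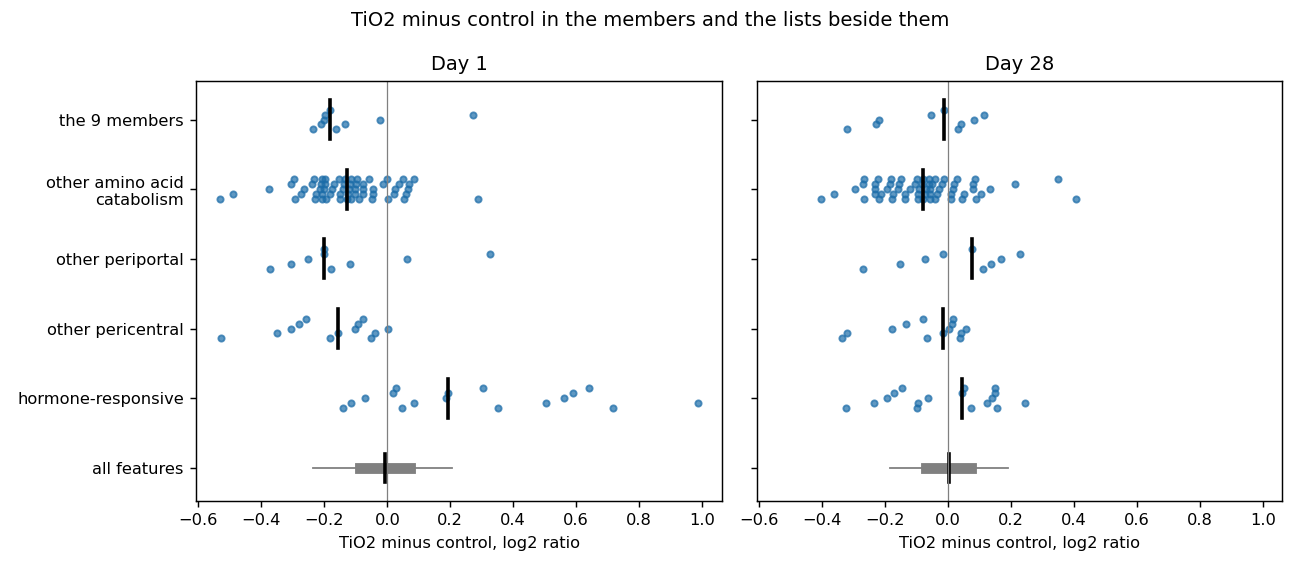
TiO2 minus control at day 1 (left) and day 28 (right) as log2 ratio for the 9 members and 4 lists beside them, with 1 point per gene and a black line at the median. For all features the thick grey bar spans the 25th to 75th percentile and the thin line the 5th to 95th. The medians at day 1 are -0.181 for the members, -0.128 for other amino acid catabolism and 0.193 for the hormone-responsive genes.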

How the data were processed

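Liver RNA (Cy5) and reference RNA (Cy3) were hybridised together on 21 arrays, without dye swap. The authors deposited scanner files, whose values used here are intensity (median spot and background signal, not normalized), per the file headers, with marks for deviant, saturated and well-measured spots. The deposited LogRatio is the log10 of processed red over green signal, per the file headers. The authors' deposited value table holds log2 values of unstated direction, set by its correlation with red over green ratios of the same arrays (r 0.9957 to 0.9971). The file headers name Feature Extraction 10.7.3.1 and the submitters' processing notes 9.5.3.1. Values and differences in the text are log2.

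In limma 3.58.1 (R 4.3.3), median signals were background-corrected by normexp with an offset of 50, which pulls the ratios of dim spots toward 0, and normalized by loess within arrays, with control spots at weight 0. Spots marked as deviant (72 to 324 per array) took the median background for normexp and were then left out. Probes well above background in liver on at least 50% of the arrays of 1 group were kept, 21403 of 41174. Symbols came from a RefSeq table (GRCm38.p6) through the accession, for 23374 probes, while 17800 had none. The probe with the highest mean liver signal stood for its gene. One model of 4 group means over 21 arrays was fitted, and p-values were adjusted by Benjamini-Hochberg over 17638 features at a threshold of 0.05. The two-sided exact permutation test gives unadjusted p for single members. The fit was tested on simulated data. Replicates are separate mice per the labels, and the number of arrays limits the precision. Members and lists were chosen with earlier results of these data known. Named genes were all members, the 2 most positive and 2 most negative genes of each list at each day, and the 2 most alike genes of each member. The design text speaks of 22 arrays, and 21 were analysed here. Of the genes this rule names, 2 values are not reported here.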

Additional observations from a re-analysis of the deposited data

Results flagged for a closer look

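Of 36 combinations of a member and a group, 3 had a liver that stood apart from the others of its group by Dixon's criterion, where chance gives about 1 in 20. All 3 were control day 28 replicate 1: Hpd at 5.685 against 6.721 for the nearest liver, Fah at 2.072 against 2.502, and Sds at 3.893 against 5.544. It was the only day 28 control on scan day 1. No explanation was tested.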

How the results depend on the processing

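No paired analysis was possible because the labels give the groups no shared replicate numbers; scan day and slide, which TiO2 and control livers share, were run as blocks. Across 38 alternatives (37 for the mean effect and the change of effect, which need all groups) 0 of 9 members were called. Normexp on all spots as measured was counted as failed on 3 arrays by a check of its corrected signals, and no comparison was fitted on it. The sign of Gls2 stayed negative at day 28 in 41 of 41 values (alternatives and scan days), from -0.531 to -0.0709, and at day 1 in 40 of 41, the exception being scan day 2 (0.105). Fitted on all features, TiO2 day 28 minus TiO2 day 1 had 6 features called, against 3 with offset 10, 1 with the scanner's LogRatio, 2 with scaling between arrays, 19 under the scan-day block, 31 and 14 under slide as random or fixed effect, and 14 with array weights. It had 1, 0 and 0 without scan days 1, 2 and 3, and 5 to 9 with 1 liver left out. TiO2 minus control at day 1 had 0 called, against 3 with slide as a random block, 1 with array weights and 0 to 3 with 1 liver left out (3 without TiO2 day 1 replicate 2). The mean TiO2 effect had 0, against 1 with LogRatio and 0 to 1 with 1 liver left out (1 without TiO2 day 1 replicate 2). Control day 28 minus control day 1 had 0, against 4 with array weights and 0 to 1 with 1 liver left out (1 without control day 1 replicate 4). Tdo2 at day 28 was -1.20 with LogRatio, against -0.0137, with its reference channel near background. The cause of these changes was not tested.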
